A study of Drosophila melanogaster with 30 samples.

Results

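Ribosome biogenesis was followed in regenerating leg discs of Drosophila melanogaster through 6 genes, nop5, Nop60B, pit, Polr1B, Nop17l and Myc. They were represented by 7 of the 18769 probe sets tested on each array, and 3541 of all probe sets were listed in the authors' 2 deposited tables. A probe set was taken when either table listed it under one of these gene names, and Nop60B had a pair (1628188_at and 1639554_at). Polr1B (1627924_at) was listed under its older name RpI135, Nop17l (1626769_s_at) as CG1553 and Myc (1625856_at) as dm. The tables list only probe sets whose adjusted p over 4 comparisons together was under 0.001, so a listed gene had to change somewhere. The 5 probe sets of nop5, Nop60B, pit and Polr1B were in both tables and carried the authors' cluster II. Nop17l was listed only among the cut comparisons, in cluster IV, and Myc only among the culture comparisons.

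The study measured mRNA on 30 Affymetrix arrays, 3 labelled biological replicates in each of 10 groups. Prothoracic leg discs came from male larvae aged 100 h and all groups share 1 genotype, w on the X chromosome, AyGAL4 together with UAS-GFP in 1 copy, and puc[E69-I]-GAL4 opposite UAS-flp. This genotype marks cells that have activated puc, a target of JNK signalling, and their descendants with GFP. In 4 cut groups the disc was divided into the anterior 1/4 or the posterior 3/4, kept for 12 or 24 h inside the abdomen of a host fly (an adult female), and the GFP-positive part was then taken. Another 4 groups were the matching regions of uncut discs cultured for 12 or 24 h, and 2 groups were the matching regions of uncut discs that were not cultured (0 h). GFP-positive cells were isolated in the cut groups alone, so cutting and this isolation cannot be told apart. The 12 h and 24 h groups were hosted by adult females, whereas the discs were male.

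Ribosome production begins in the nucleolus, where RNA polymerase I copies the rRNA genes. Small nucleolar ribonucleoproteins (snoRNPs) then modify the rRNA, helicases and assembly factors fold it, and ribosomal proteins join it. In flies Myc, a transcription factor, drives cell growth in imaginal discs and is known to raise the mRNA of many of these nucleolar genes. Discs that regenerate after cutting form a blastema, a group of dividing cells near the wound. The comparisons asked how these genes differ between regenerating and intact cultured tissue, and what culture in a host does on its own.

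The deposited value of a probe set on an array is a normalized log2 value from which a mean had already been subtracted. Every probe set averaged 0 within each of 3 sets of arrays. Set 1 held 15 arrays (cut anterior at 12 and 24 h and uncut posterior at 0, 12 and 24 h). Set 2 held 6 arrays (cut 12 h posterior and uncut 12 h anterior), and set 3 held 9 arrays (cut 24 h posterior, uncut 24 h anterior and uncultured anterior). The labels do not say what the sets are. Values can therefore be compared within a set, and absolute levels are unknown. None of the 4 cut comparisons within a region lies inside a set, so in each of them region-specific cutting and set cannot be told apart. The mean of the anterior and posterior cut groups minus the mean of both uncut groups of the same time cancels the set means, and so do 3 of the 4 culture comparisons. These unaffected differences carry the results below, and those over both regions were chosen after the data had been seen. Array medians lay between -0.037 and 0.0396, but normalization and centring hold them near 0, so they do not measure quality. The spread around the group mean lay between 0.136 and 0.262 log2 units. It was 0.226 to 0.262 in uncultured anterior arrays and 0.136 to 0.150 in uncultured posterior arrays.

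Cut, GFP-positive cells had more mRNA of the core nucleolar genes than uncut cultured tissue. At 24 h after cutting nop5, both Nop60B probe sets, pit and Polr1B were higher by 1.5- to 2.13-fold, and at 12 h by 1.33- to 1.54-fold. Myc did not pass the test at either time, and Nop17l was lower at 12 h. Thus 5 of the 7 probe sets were higher and 1 was lower at 12 h, while 5 were higher and 0 lower at 24 h (limma, adjusted p under 0.05). Over all probe sets tested the share called higher was 6.52% at 12 h and 9.15% at 24 h, and the share called in either direction was 16.5% and 17.8%. Among the 3541 listed probe sets it was 20.7% and 32.1% higher, and 32.9% and 28.9% lower. The median difference of the 7 probe sets was 0.53 at 12 h and 0.64 at 24 h on the log2 scale, against 0.01 at both times over all probe sets. The 24 h differences were smaller within set 1, cut anterior against uncut posterior. There Nop60B 1639554_at (0.46), pit (0.47) and Polr1B (0.39) did not pass. Within set 3, cut posterior against uncut anterior, all 5 passed, with 1.18 for Nop60B 1639554_at and 0.81 for pit. Region differs within both of these pairs. In these bulk samples a different mix of cells and a different amount of RNA per cell cannot be told apart.

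The gene nop5 encodes the fly counterpart of Nop58, a core protein of the box C/D snoRNPs, which guide 2'-O-methylation of rRNA. In set 3 its 3 cut 24 h posterior arrays were at 0.56, 0.29 and 0.19, against -0.86, -0.90 and -0.72 in uncut 24 h anterior arrays (log2, set mean 0). In set 1 the cut 24 h anterior arrays were at 0.33, 0.41 and -0.19, against -0.54, -0.43 and -0.40 in uncut 24 h posterior arrays. In both sets every cut array lay above every uncut cultured array, although replicate 3 of the cut 24 h anterior group came close. Of all probe sets 15.2% in set 3 and 13.1% in set 1 had every cut 24 h array above every uncut 24 h array. Averaged over the regions the difference was 0.91 ± 0.10 (SE, 3 arrays in each of 4 groups), a 1.88-fold higher level, with an adjusted p of 6.5e-07 in limma. At 12 h it was 0.59 ± 0.10, adjusted p = 0.000206, and again the groups did not overlap within a set, as for 18.3% of all probe sets in set 1 and 11.5% in set 2 with the cut arrays higher. At 12 h the cut posterior arrays were at 0.51, 0.11 and 0.13, against -0.29, -0.17 and -0.28 in uncut 12 h anterior arrays.

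Nop60B is the fly dyskerin, the pseudouridine synthase of the box H/ACA snoRNPs. Its 2 probe sets gave the same direction with different sizes. On 1628188_at the cut 24 h posterior arrays were at 0.25, 0.38 and 0.18, against -1.09, -0.84 and -1.03 in uncut 24 h anterior arrays. The cut 24 h anterior arrays were at 0.26, 0.27 and -0.11, against -0.80, -0.59 and -0.96 in uncut 24 h posterior arrays. No cut 24 h array reached the range of the uncut 24 h arrays of its set. With the cut arrays higher, this held for 15.2% of all probe sets in set 3 and 13.1% in set 1. The mean difference of 1.09 ± 0.12 was the largest among the 7 probe sets (adjusted p = 5.9e-07). At 12 h the same probe set differed by 0.41 ± 0.12 (adjusted p = 0.0196). That call was lost when 1 of 3 arrays was left out: 0.33 (adjusted p = 0.0651) without replicate 1 of the cut 12 h anterior group, 0.31 (adjusted p = 0.0755) without replicate 3 of the uncut 12 h anterior group and 0.34 (adjusted p = 0.0676) without replicate 1 of the uncut 12 h posterior group. With only the groups compared in the fit it did not pass either (adjusted p = 0.0658). The uncut 12 h posterior arrays spread from -0.52 to 0.16 on this probe set and reached into the range of the cut 12 h anterior arrays, which were at 0.45, -0.04 and -0.07. On 1639554_at the difference was 0.82 ± 0.11 at 24 h (adjusted p = 8.0e-06) and 0.53 ± 0.11 at 12 h (adjusted p = 0.00136).

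The gene pit encodes Pitchoune, a DEAD-box RNA helicase of the nucleolus that is known in flies to respond to Myc. Its cut 24 h posterior arrays were at 0.35, 0.36 and -0.15, against -0.67, -0.71 and -0.50 in uncut 24 h anterior arrays. In set 1 the cut 24 h anterior arrays lay between -0.12 and 0.31, and the uncut 24 h posterior arrays between -0.42 and -0.34. At 12 h the cut posterior arrays were at 0.81, 0.03 and 0.01, against -0.10, -0.47 and -0.28 in uncut 12 h anterior arrays. Replicate 1 of the cut group stood well above the others. The groups did not overlap, as for 11.5% of all probe sets in set 2 with the cut arrays higher. Over both regions pit was higher by 0.64 ± 0.12 at 24 h (1.56-fold, adjusted p = 0.000517) and by 0.62 ± 0.12 at 12 h (1.54-fold, adjusted p = 0.000965).

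Polr1B is the second-largest subunit of RNA polymerase I. The cut 12 h anterior arrays were at 0.48, 0.21 and 0.33, against -0.15, -0.54 and -0.38 in uncut 12 h posterior arrays. These groups did not overlap, as for 18.3% of all probe sets in set 1 with the cut arrays higher. Its cut 24 h posterior arrays were at 0.33, 0.39 and 0.12, against -0.78, -0.46 and -0.26 in uncut 24 h anterior arrays. In set 1 the cut 24 h anterior arrays lay between -0.22 and 0.36, and the uncut 24 h posterior arrays between -0.35 and -0.23. The difference was nearly the same at both times, 0.58 ± 0.10 at 24 h (adjusted p = 0.000136) and 0.61 ± 0.10 at 12 h (adjusted p = 0.000113). The 24 h minus 12 h difference of the cut effect was -0.03 with a 95% interval from -0.32 to 0.27.

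**Figure D1:**
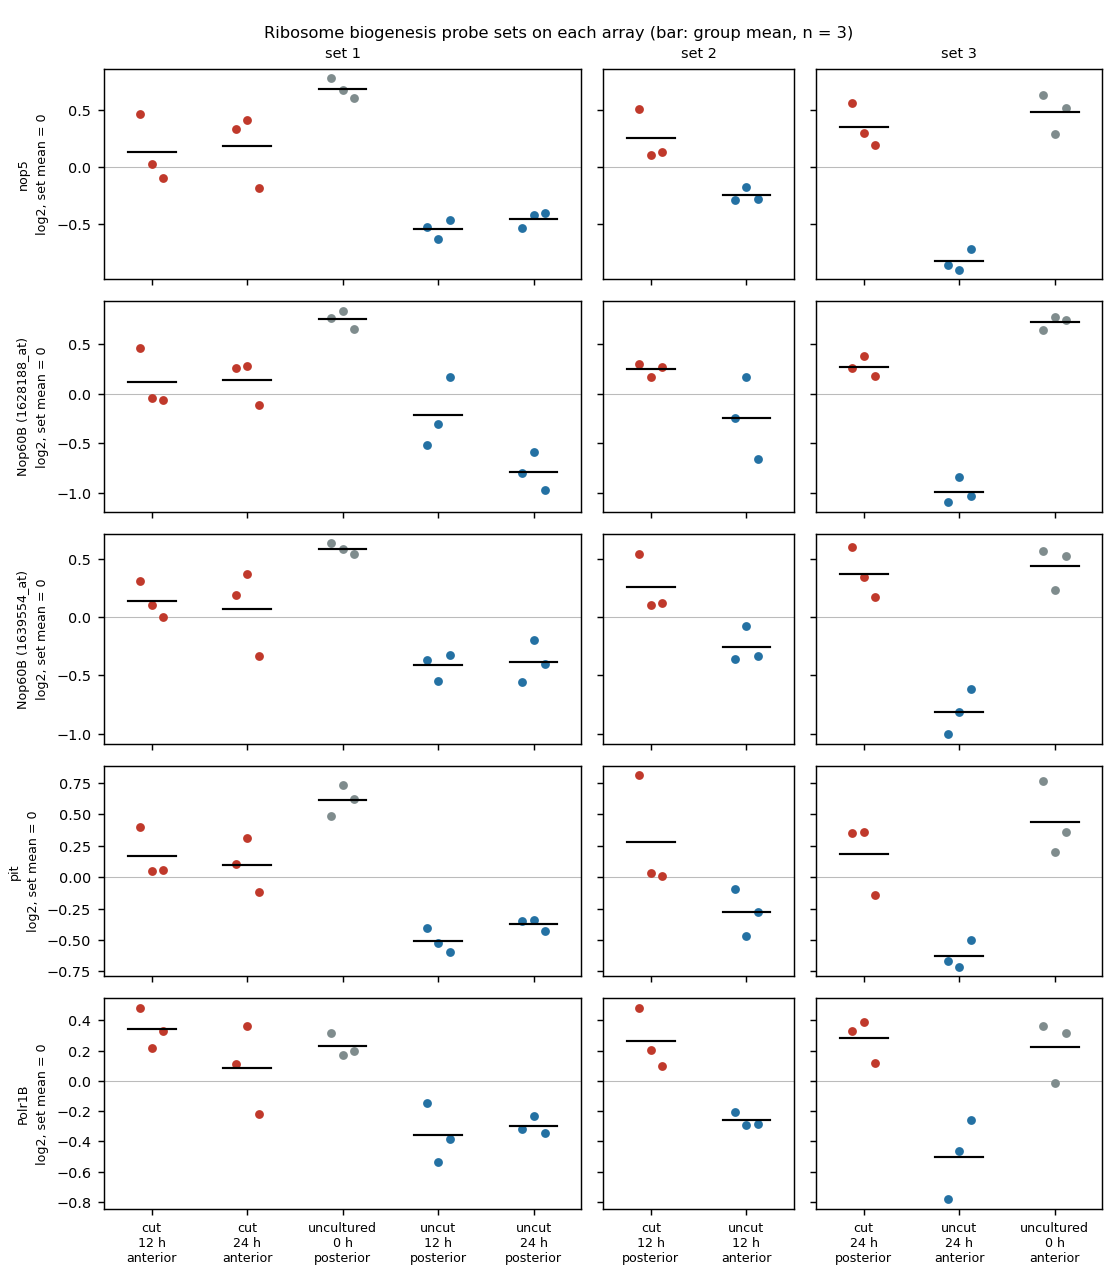
Values of nop5, Nop60B, pit and Polr1B on each array in log2 units, with each probe set's mean at 0 within a set (columns). Each point is 1 array and each bar a group mean of 3 arrays. Uncut cultured arrays (blue) lie low, uncultured arrays (grey) and cut arrays (red) lie higher, and vertical positions can be compared only within a column.

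Nop17l moved the other way. It is named after yeast Nop17, a factor that helps the R2TP chaperone complex assemble box C/D snoRNPs in yeast. Whether the fly gene has this role was not tested. The cut 12 h anterior arrays were at 0.00, -0.61 and -0.81, against 0.19, 0.14 and 0.34 in uncut 12 h posterior arrays. In set 2 the cut 12 h posterior arrays were at -0.09, -0.28 and -0.27, against 0.30, 0.24 and 0.09 in uncut 12 h anterior arrays. Every cut array at 12 h was below every uncut 12 h array of its set, as for 13.4% of all probe sets in set 1 and 17.1% in set 2, and the mean difference was -0.56 ± 0.10, a 1.47-fold lower level (adjusted p = 0.000185). At 24 h the difference was -0.10 with a 95% interval from -0.30 to 0.10 (adjusted p = 0.561). Within set 1 Nop17l was higher in the cut anterior fragment at 24 h than at 12 h by 0.54 ± 0.14 (adjusted p = 0.0250), though replicate 1 of the 12 h group lay within the range of the 24 h group. That call was lost without replicate 2 or 3 of the 12 h group (0.48, adjusted p = 0.116, and 0.38, adjusted p = 0.252), without replicate 1 or 3 of the 24 h group (0.56, adjusted p = 0.0710, and 0.47, adjusted p = 0.138) and with only the 2 groups in the fit (limma, adjusted p = 0.206). The change of the cut effect between the times over both regions, 0.46 ± 0.14, did not pass (limma, adjusted p = 0.162).

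Myc mRNA did not follow the nucleolar genes across the cut. In set 2 the cut 12 h posterior arrays were at 0.061, -0.19 and -0.18, against 0.12, 0.13 and 0.065 in uncut 12 h anterior arrays. These groups narrowly did not overlap, as for 17.1% of all probe sets in set 2 with the cut arrays lower. In set 1 the 12 h groups overlapped. The cut 12 h anterior arrays lay between -0.16 and 0.12, and the uncut 12 h posterior arrays between 0.03 and 0.39. The cut 24 h posterior arrays were at 0.25, 0.30 and 0.08, against 0.52, -0.06 and 0.49 in uncut 24 h anterior arrays, and these groups overlapped. Over both regions the difference was -0.23 at 12 h (95% interval -0.43 to -0.04, adjusted p = 0.0938) and -0.15 at 24 h (95% interval -0.35 to 0.04, adjusted p = 0.314). The upper end of the 24 h interval is below the lower end of the interval of each of the 5 higher probe sets, the lowest of which is 0.38. The 12 h value did pass after renewed quantile normalization (-0.24, adjusted p = 0.0307) and with array weights (-0.27, adjusted p = 0.0160), and the 24 h value did without replicate 2 of the uncut 24 h anterior group (-0.25, adjusted p = 0.0408).

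No probe set of the 7 had a cut effect that differed between 24 h and 12 h at an adjusted p under 0.05, a threshold that 0.368% of all probe sets passed. The largest change was that of Nop60B 1628188_at, whose cut effect was 0.68 ± 0.17 larger at 24 h (unadjusted p = 0.000545, adjusted p = 0.0882). It passed with array weights (0.74, adjusted p = 0.0443) and when p-values were adjusted over the more variable 50% of probe sets (adjusted p = 0.0461). For nop5 the change was 0.32 (95% interval 0.03 to 0.62, adjusted p = 0.416), and for pit 0.02 (95% interval -0.34 to 0.39).

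Culture without cutting had the opposite sign on the same nucleolar genes. In the posterior region at 12 h and in both regions at 24 h, nop5, both Nop60B probe sets, pit and Polr1B were lower in cultured than in uncultured discs, by 1.44- to 3.25-fold. Myc was higher in all 3 comparisons, by 1.69- to 1.79-fold, and Nop17l did not pass in any. So 1 of the 7 probe sets was higher and 5 were lower each time. Over all probe sets the share called higher was 10.5% at 12 h posterior, 14.0% at 24 h anterior and 14.6% at 24 h posterior, and the share called lower was 9.76%, 18.1% and 9.56%. Among listed probe sets the share called higher was 40.1%, 45.9% and 47.5%, and the share called lower was 33.9%, 38.0% and 33.1%. The cut and culture comparisons use the same uncut cultured arrays, so their opposite signs are not independent of each other.

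For nop5 the uncut 24 h anterior arrays at -0.86, -0.90 and -0.72 stood against uncultured anterior arrays at 0.63, 0.29 and 0.52. The groups were far apart, and the difference was -1.31 ± 0.14 (adjusted p = 1.2e-07). In the posterior region the uncut 12 h arrays were at -0.53, -0.64 and -0.46 and the uncut 24 h arrays at -0.54, -0.43 and -0.40, against 0.78, 0.68 and 0.60 in uncultured arrays. The decrease was -1.23 ± 0.14 at 12 h and -1.14 ± 0.14 at 24 h, and its change between these times, 0.09, had a 95% interval from -0.21 to 0.38.

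Nop60B 1628188_at showed the deepest decrease. The uncut 24 h anterior arrays at -1.09, -0.84 and -1.03 stood against 0.64, 0.76 and 0.74 in uncultured anterior arrays, a difference of -1.70 ± 0.17 (3.25-fold lower, adjusted p = 3.0e-08). In the posterior region it was lower by 1.95-fold at 12 h and by 2.89-fold at 24 h. The 24 h minus 12 h change was -0.56 ± 0.17 (adjusted p = 0.120), and passed only with array weights (-0.60, adjusted p = 0.00710) among the alternatives run. The other Nop60B probe set was lower by 2.0-fold and 1.96-fold at these times, and its change between them was 0.03 (95% interval -0.29 to 0.35).

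For pit the decrease was -1.12 ± 0.18 in the posterior region at 12 h, -1.07 ± 0.18 in the anterior region at 24 h and -0.98 ± 0.18 in the posterior region at 24 h. All 3 had an adjusted p of at most 0.000122. Polr1B had the smallest decrease of the 5, -0.59 ± 0.14, -0.72 ± 0.14 and -0.53 ± 0.14 in the same order (adjusted p of at most 0.00608). In these comparisons the cultured and uncultured arrays of all 5 probe sets did not overlap, as for 21.1%, 19.9% and 22.7% of all probe sets with the cultured arrays lower.

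Myc ran against them. The uncut 24 h anterior arrays were at 0.52, -0.06 and 0.49, against -0.37, -0.55 and -0.65 in uncultured anterior arrays. In the posterior region the uncut arrays were at 0.03, 0.25 and 0.39 at 12 h and at 0.38, 0.37 and 0.08 at 24 h, against -0.64, -0.37 and -0.58 in uncultured arrays. Each cultured array lay above each uncultured array of its region, as for 18.7%, 14.3% and 21.2% of all probe sets at 12 h posterior, 24 h anterior and 24 h posterior. The increase was 0.76 ± 0.13 at 12 h posterior, 0.84 ± 0.13 at 24 h anterior and 0.80 ± 0.13 at 24 h posterior, with adjusted p-values of 0.000115, 2.0e-05 and 4.2e-05. Nop17l differed by 0.26, -0.15 and 0.24 in the same comparisons, with adjusted p-values between 0.229 and 0.431.

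The culture effect at 24 h did not differ between posterior and anterior for any of the 7 at an adjusted p under 0.05, a call made for 1.28% of all probe sets. The posterior minus anterior difference lay between -0.03 for Myc and 0.39 for Nop17l (adjusted p from 0.322 to 0.951).

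**Figure D2:**
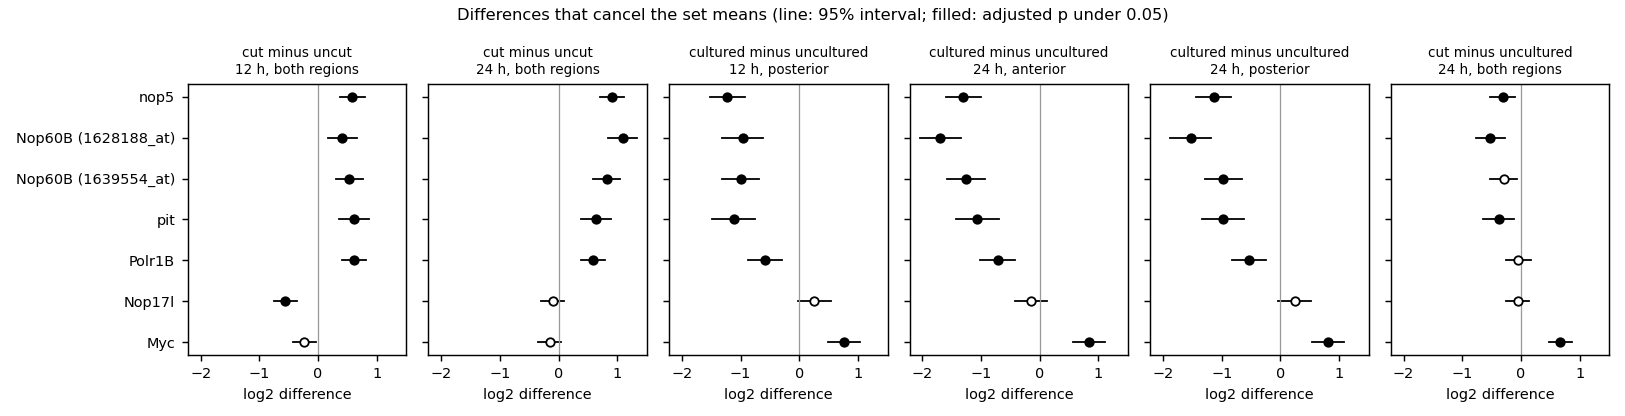
Log2 differences of the 7 probe sets in the 6 comparisons that are unaffected by the set means. Dots are differences, lines are 95% intervals, and filled dots have an adjusted p under 0.05. The 5 nucleolar probe sets lie right of 0 for cut minus uncut and left of 0 for cultured minus uncultured, whereas Myc lies right of 0 only against uncultured discs.

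Set against uncultured discs, the cut cells at 24 h had smaller differences in the 5 nucleolar probe sets than uncut cultured discs had. Over both regions the cut minus uncultured difference was -0.04 for Polr1B (95% interval -0.25 to 0.16) and -0.06 for Nop17l (95% interval -0.25 to 0.14). Nop60B 1628188_at remained lower by 1.44-fold (-0.53 ± 0.12, adjusted p = 0.00158). For nop5 the difference was -0.31 ± 0.10 (adjusted p = 0.0220), and for pit -0.38 ± 0.12 (adjusted p = 0.0228). Both of these calls were lost without replicate 3 of the cut 24 h anterior group (nop5 -0.22, adjusted p = 0.0970, and pit -0.33, adjusted p = 0.0731), replicate 3 of the cut 24 h posterior group (-0.28, 0.0612, and -0.30, 0.0805) or replicate 1 of the uncultured anterior group (-0.28, 0.0540, and -0.30, 0.0720). The nop5 call was also lost without replicate 1 of the uncultured posterior group (-0.29, adjusted p = 0.0549), and the pit call without replicate 2 of that group (-0.35, adjusted p = 0.0566). Neither call held after renewed quantile normalization (nop5 -0.24, adjusted p = 0.185, and pit -0.31, adjusted p = 0.156) or with array weights (-0.26, adjusted p = 0.0746, and -0.31, adjusted p = 0.0648), and the nop5 call was lost with only the groups compared in the fit (adjusted p = 0.0549). Nop60B 1639554_at was just outside the threshold (-0.29, adjusted p = 0.0509). It passed without replicate 1 or 2 of the cut 24 h anterior group (-0.32, adjusted p = 0.0473, and -0.37, adjusted p = 0.0165), replicate 1 of the cut 24 h posterior group (-0.35, adjusted p = 0.0247) or replicate 2 of the uncultured anterior group (-0.35, adjusted p = 0.0277).

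Myc stayed above uncultured discs in cut cells too, by 0.67 ± 0.09 (1.59-fold, adjusted p = 3.9e-06). In set 3 the cut 24 h posterior arrays were at 0.25, 0.30 and 0.08, and the uncultured anterior arrays lay between -0.65 and -0.37. In all, 1 of the 7 probe sets was higher and 3 were lower than in uncultured discs, where 13.9% and 13.6% of all probe sets were called higher and lower.

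**Figure D3:**
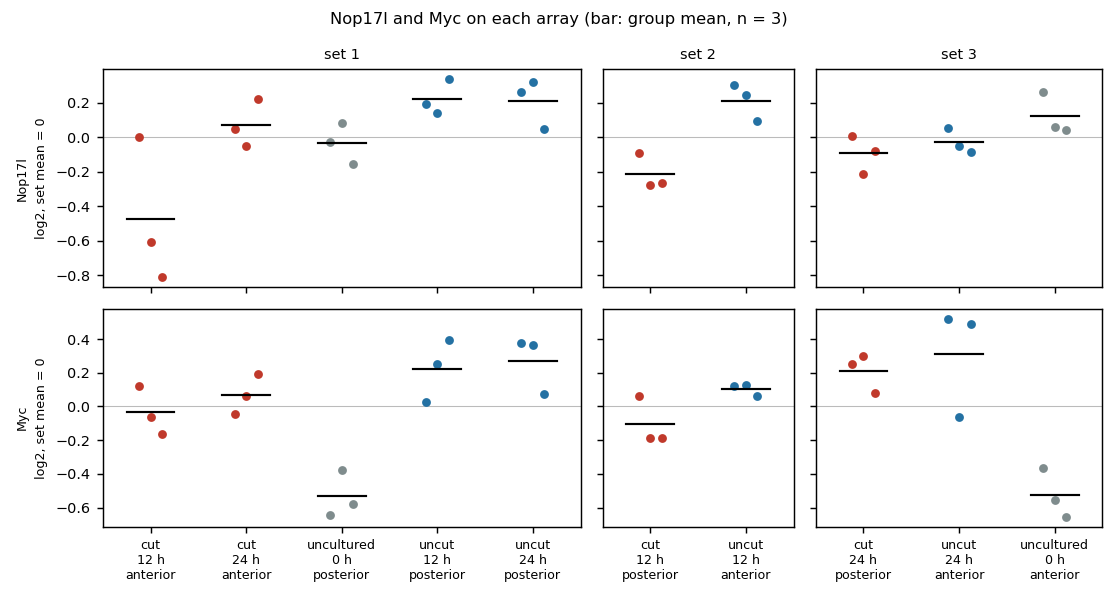
Values of Nop17l and Myc on each array in log2 units, with each probe set's mean at 0 within a set (columns). Points are arrays and bars are group means of 3. The cut 12 h arrays of Nop17l lie below the uncut 12 h arrays in sets 1 and 2, and the uncultured arrays of Myc lie below all other arrays of sets 1 and 3.

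The group means were ordered within each set. In set 1 nop5, both Nop60B probe sets and pit were highest in uncultured posterior tissue, followed by the cut anterior groups, and lowest in the uncut cultured groups. The cut 12 h anterior arrays overlapped the uncut 12 h posterior arrays for Nop60B 1628188_at, as did the cut and uncut 24 h arrays for 1639554_at. Between them the cut 12 h and cut 24 h anterior groups gave a difference that passed the test for none of the 5 (the adjusted p-values of their difference lay between 0.431 and 0.974, and 2.80% of all probe sets passed). Polr1B was highest in the cut 12 h anterior group, at 0.34 ± 0.13 (SD, n = 3), next to uncultured posterior tissue at 0.23 ± 0.08. In set 3 the group means of the other 4 nucleolar probe sets had the order uncultured, cut and uncut cultured. Uncultured and cut arrays overlapped there for nop5, Nop60B 1639554_at and pit, but not for Nop60B 1628188_at. Polr1B was at 0.28 ± 0.14 in cut 24 h posterior arrays and 0.22 ± 0.21 in uncultured anterior arrays, which also overlapped. Set 2 holds no uncultured group.

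The region-specific cut comparisons, as the authors' deposited table gives them, were all positive for the 5 nucleolar probe sets. For nop5 that table gives 0.38 at 12 h anterior, 0.79 at 12 h posterior, 1.01 at 24 h anterior and 0.81 at 24 h posterior (log fold changes, read as log2). For Polr1B it gives 0.60, 0.62, 0.59 and 0.58, and for Nop17l -0.68, -0.44, 0.10 and -0.30. Each of these sets 1 group against another in a different set, so part of the number belongs to the mean of the other groups in those sets. In the fit of the same values 2, 4, 5 and 5 of the 7 probe sets passed, with 8.84%, 5.05%, 8.62% and 9.85% of all probe sets called. In the culture comparison at 12 h anterior, which also crosses sets, 6 of the 7 passed, against 15.8% of all probe sets. Cut cells against uncultured discs of the same region, again across sets, gave 3 and 1 of the 7 in the anterior and posterior regions at 12 h and 2 and 1 at 24 h, where 14.8%, 8.16%, 13.1% and 18.4% of all probe sets passed. Between 12 and 24 h in the anterior region the cut effect changed for 1 of the 7, Nop17l, and the culture effect for 2, nop5 and Nop60B 1628188_at, against 2.15% and 2.17% of all probe sets.

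Most pairs of the 5 nucleolar probe sets varied together among replicates, less so those with Nop60B 1628188_at. Over the 30 arrays, each taken as its deviation from its group mean, nop5 and Nop60B 1639554_at had a Pearson r of 0.90. The value was 0.81 for Polr1B and Nop60B 1639554_at, 0.71 for pit and Polr1B and 0.47 for nop5 and Nop60B 1628188_at. The lowest values among the 5 were 0.12 for Nop60B 1628188_at with pit and 0.24 for it with Polr1B. Myc had 0.01 with Polr1B and 0.44 with pit. In 9 of the 12 cut arrays all 5 nucleolar probe sets deviated in the same direction from their group means, against 3 of the 18 uncut arrays. The widest such shifts were a mean of 0.27 for replicate 1 of the cut 12 h posterior group and -0.31 for replicate 3 of the cut 24 h anterior group. All probe sets of an array share its RNA and normalization, and these correlations are a description only.

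The wider nucleolar programme showed the same direction in most of its listed genes. From 5 gene lists of this machinery, 34 of 59 genes other than the 6 were listed, with 1 probe set each. At 12 h after cutting 23 of the 34 were higher and 5 lower, and at 24 h 29 were higher and 2 lower. Of all listed probe sets 20.7% and 32.1% were higher and 32.9% and 28.9% lower at these times. Their median cut effect was 0.39 at 12 h and 0.49 at 24 h, against a median over all listed probe sets of -0.08 and -0.02. In cultured uncut discs 29 of the 34 were lower and 5 higher at 12 h posterior, with a median of -0.77 against 0.20 over all listed probe sets, of which 33.9% were lower and 40.1% higher. At 24 h, 28 were lower in each region, with 4 higher in the anterior and 5 in the posterior, where 38.0% and 33.1% of listed probe sets were lower and 45.9% and 47.5% higher.

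Among the RNA polymerase I genes 6 of 11 were listed. Polr1D, a subunit shared with RNA polymerase III, was higher in cut cells by 0.87 ± 0.11 at 24 h (adjusted p = 4.9e-06). Polr1E, another subunit of RNA polymerase I, was higher by 0.64 ± 0.10, and Polr1A, the largest subunit, by 0.35 ± 0.09. The gene udd, whose fly product helps RNA polymerase I start on rRNA genes, was lower in cut cells at 12 h (-0.23, adjusted p = 0.0358). At 24 h after cutting it did not pass (-0.14, limma, adjusted p = 0.250). With culture udd was higher (0.67 over both regions at 24 h, adjusted p = 6.5e-08). Its estimates thus had signs opposite to those of the subunits, though the estimate at 24 h after cutting did not pass.

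The snoRNP cores were listed nearly in full, 4 of 4 box C/D genes and 3 of 4 box H/ACA genes. All 8 of their probe sets, nop5 and Nop60B included, rose with cutting at both times and fell with culture in each of the 3 unaffected comparisons. Of all listed probe sets 20.7% and 32.1% were higher at 12 and 24 h after cutting. With culture 33.9%, 38.0% and 33.1% of them were lower at 12 h posterior, 24 h anterior and 24 h posterior. Fibrillarin (Fib), the methyltransferase of the box C/D particle, was higher by 0.72 ± 0.13 at 24 h after cutting, and Nop56, the partner of nop5 in that particle, by 0.71 ± 0.09. The RNA-binding protein hoip rose by 0.88 ± 0.08. NHP2 and Nop10, which form the H/ACA core with Nop60B, rose by 0.95 ± 0.09 and 0.68 ± 0.07. For these 5 genes the adjusted p was at most 0.000161.

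Of 5 genes on the snoRNP assembly list 3 were listed: Nop17l, whose part in this assembly was not tested, with pont and rept. These 2 AAA+ ATPases of the R2TP complex were higher in cut cells at 24 h by 0.41 ± 0.09 and 0.66 ± 0.12, and at 12 h by 0.30 (adjusted p = 0.0283) and 0.31 (adjusted p = 0.0767). Nop17l was therefore the only listed gene of this list with a negative estimate after cutting.

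Of 40 rRNA processing and assembly genes 23 were listed. Besides pit, 18 of the other 22 were higher at 24 h after cutting and 2 were lower, against 14 and 4 at 12 h. Among all listed probe sets 32.1% were higher and 28.9% lower at 24 h, against 20.7% and 32.9% at 12 h. Nopp140, a nucleolar chaperone of snoRNPs, rose by 0.76 ± 0.09 at 24 h, and Noc1, an assembly factor of the large subunit, by 0.57 ± 0.10. CG4866 rose by 0.52 ± 0.09. A group of 4 genes ran the other way: CG4364 (the fly pescadillo), Ddx56 and Dbp45A (RNA helicases) and Non1 (a nucleolar GTPase). These were the 4 that were lower at 12 h after cutting, with differences of -0.57, -0.53, -0.25 and -0.30, and higher in uncut discs after 24 h of culture, by 1.09, 0.78, 0.41 and 1.30 over both regions. Ddx56, Dbp45A and Non1 fall outside the naming rule and were picked after their values had been seen.

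Most listed cytosolic ribosomal protein genes had other directions than the nucleolar genes. Of 93 genes on that list 18 were listed, on 20 probe sets. The list was drawn by gene symbol, so RpLP0-like, RpL24-like, RpL7-like and RpS28-like are on it by name alone. Whether their products are ribosomal proteins was not checked. At 12 h after cutting 16 of the 20 were lower and 2 higher, with a median of -0.49, where 32.9% of listed probe sets were lower and 20.7% higher. At 24 h 2 were lower and 3 higher, with a median of 0.05, where 28.9% were lower and 32.1% higher. RpS13 differed by -0.53 ± 0.07 at 12 h (adjusted p = 1.7e-05) and by -0.03 at 24 h (adjusted p = 0.876). The higher ones at 12 h were RpLP0-like (0.61 ± 0.12) and RpS5b (0.90 ± 0.12), a paralog of RpS5a. RpLP0-like had the directions of the nucleolar genes throughout, with a cut effect of 0.98 ± 0.12 at 24 h and culture effects of -1.18, -1.21 and -1.17 at 12 h posterior, 24 h anterior and 24 h posterior (each with an adjusted p of at most 9.1e-06). RpS19b, named after its values were seen, also fell with culture (-0.81 ± 0.10 over both regions at 24 h), while its cut effect did not pass (0.02 at 12 h and 0.18 at 24 h). With culture the counts were 9 higher and 2 lower at 12 h posterior, and at 24 h 4 and 6 in the anterior region and 13 and 2 in the posterior, where 40.1%, 45.9% and 47.5% of listed probe sets were higher and 33.9%, 38.0% and 33.1% lower.

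The Myc network had 2 of 5 genes listed, Myc and bigmax, which pairs with Mondo in a neighbouring branch of the network. Bigmax rose with culture by 1.01 ± 0.17 at 12 h posterior and by 1.03 ± 0.12 at 24 h over both regions, and like Myc it did not pass across the cut (-0.34, adjusted p = 0.0545 at 12 h, and -0.16, adjusted p = 0.449 at 24 h). Of 5 genes on the list of Myc turnover and brakes only mei-P26, a TRIM-NHL protein, was listed. It was lower in cut cells than in uncut cultured discs, with differences of -0.31 ± 0.10 at 12 h (adjusted p = 0.0242) and -0.48 ± 0.10 at 24 h (adjusted p = 0.000600). With 24 h of culture over both regions it was higher by 0.51 ± 0.10 (adjusted p = 0.000115), though it did not pass at 12 h posterior or 24 h anterior. Its cut minus uncultured difference at 24 h was 0.02 (adjusted p = 0.887).

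**Figure D4:**
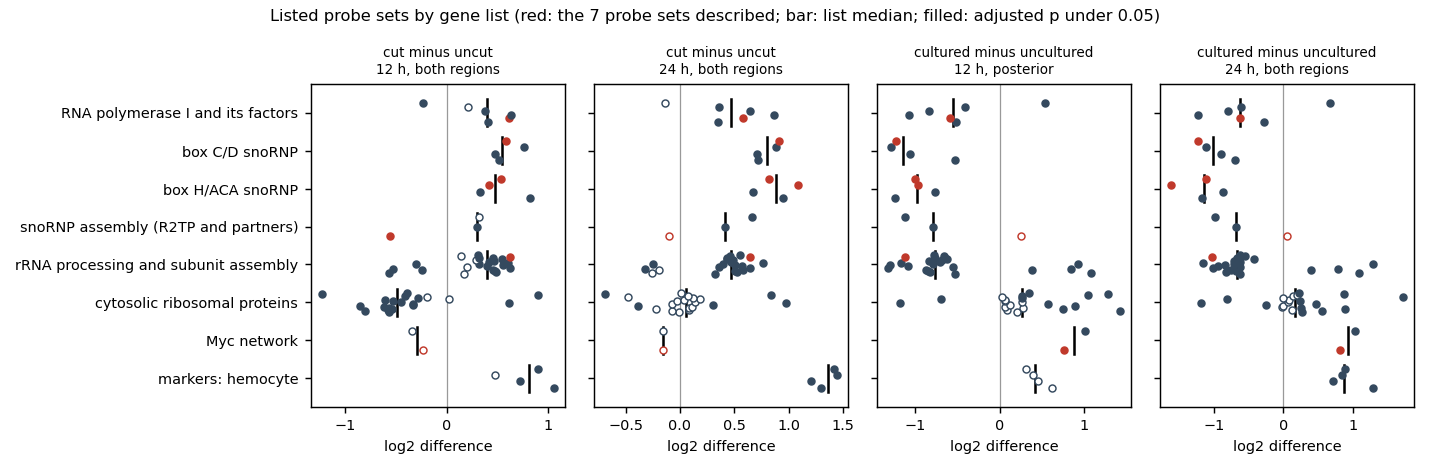
Log2 differences of every listed probe set of 8 gene lists in 4 comparisons unaffected by the set means. Each dot is a probe set, red for the 7 described, filled where its adjusted p is under 0.05, and bars are list medians. The nucleolar lists lie right of 0 for cut minus uncut and left of 0 for cultured minus uncultured, with Nop17l, udd and 4 processing genes on the other side, and ribosomal proteins lie left of 0 at 12 h after cutting.

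Markers of other cells moved in the same samples. Of 6 hemocyte (blood cell) markers 4 were listed, and 3 were higher at 12 h and 4 at 24 h in cut cells, with a median of 1.36 at 24 h. Their mean over an array lay between 1.34 and 1.89 in the cut 24 h anterior group, between -0.74 and 0.26 in the uncut 24 h posterior group and between -1.12 and -0.997 in the uncultured posterior group. All 4 muscle and myoblast probe sets were lower at 12 h after cutting and 1 at 24 h, both neuron and glia genes were lower at both times, and the yolk protein gene Yp1 was higher by 3.16 after 24 h of culture in the anterior region but did not pass in the posterior (0.41, adjusted p = 0.614). With 24 h of culture over both regions 4 of 4 hemocyte and 4 of 4 muscle probe sets were higher, with medians of 0.87 and 0.69, and 1 of 2 neuron and glia genes was higher. In that comparison 7053 of all 18769 probe sets were called in either direction. Of the 6 leg disc markers 2 were listed, Scr and ap, on 3 probe sets, of which 2 were lower in cut cells at 12 h and 3 at 24 h. Among all listed probe sets 20.7% were higher and 32.9% lower at 12 h after cutting, and 32.1% and 28.9% at 24 h. No germline or tracheal marker was listed, and which markers are at background cannot be read from centred values. The part of these cells in the results was not tested.

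The genes whose 10 group means were most like those of each of the 7 probe sets came from the 3318 other probe sets with a gene name. For nop5 they were Rrp40 (Pearson r = 0.996), Polr1E (0.995) and ND-23 (0.995). For pit they were nclb (0.997), CG8545 (0.996) and CG6937 (0.994), and for Polr1B CG8891 (0.982), CG7668 (0.981) and Dhps (0.978). For Nop60B 1628188_at they were cype (0.993), timeout (0.990) and Ctf4 (0.990), and for 1639554_at La (0.996), ATPsynO (0.993) and SdhD (0.992). Nop17l was most like Bacc (0.970), CG13252 (0.944) and Amph (0.941), and Myc most like koi (0.996), PolH (0.996) and CG30377 (0.994). Among the 7, nop5 had an r of 0.99 with pit, -0.35 with Nop17l and -0.80 with Myc. The 10 means share the set centring, and these values are descriptions.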

How the data were processed

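The authors measured mRNA on Affymetrix arrays, and the submitters' processing notes name RMA for normalization and limma for testing. The authors deposited a table of normalized log2 values per probe set and array, and 2 tables with a log2 fold change for each of 4 comparisons, an overall adjusted p-value and a k-means cluster. Base 2 is read from RMA and is not written in the files. The genome build is not given in the sources used here. No value table row carries a gene name, so genes are named from the deposited tables, where 3325 of 3541 listed probe sets (control probes left out) have a name, brought to current symbols through RefSeq's gene table. Other probe sets of the 6 genes are not analysed here.

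In the deposited log2 values each probe set averages 0, to within 8.2e-09, in each of 3 sets of arrays, found from the values themselves. The authors' 17932 deposited log2 fold changes equal differences of group means of these values to within 1.6e-08, and so contain the set means too. From the values, a linear model with the 10 groups was fitted to all 30 arrays and 18769 probe sets (183 control probe sets left out) in limma 3.58.1 under R 4.3.3, with empirical Bayes moderation (20 residual and 5.26 prior degrees of freedom). P-values were adjusted over the whole table (Benjamini-Hochberg), and an adjusted p under 0.05 counts as called. Errors are moderated SEs and 95% intervals. The number of arrays limits precision, and p-values measure the spread among 3 labelled biological replicates per group. Figures were drawn with Python 3.11.15 and matplotlib 3.10.9. The scripts were tested on simulated data.

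The rule named all 7 probe sets, and of each gene list the 3 genes with the smallest adjusted p in the cut comparison, and in the culture comparison, with most calls on that list. It also named the 3 genes most like each probe set by Pearson r. A planned limit on low levels for these could not be applied to centred values. The lists hold RNA polymerase I, box C/D, box H/ACA, snoRNP assembly, rRNA processing, ribosomal protein, Myc network and Myc turnover genes, and markers of leg disc, hemocyte, fat body, germline, muscle, neuron and trachea. The genes, lists and tests were chosen with earlier results of these data known. Same-numbered replicates did not deviate together (mean r 0.0246 over 45 group pairs, 11 of 30 arrays closest to their own number), so no pairing was used.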

Additional observations from a re-analysis of the deposited data

Results flagged for a closer look

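A change of an effect between 12 and 24 h passed the test for 3 results, each of them a difference that crosses the sets of arrays. The culture effect in the anterior region at 24 h minus that at 12 h was -0.578 for nop5 (adjusted p = 0.0328) and -0.740 for Nop60B 1628188_at (adjusted p = 0.0231). The cut effect in the anterior region was higher at 24 h than at 12 h by 0.784 for Nop17l (adjusted p = 0.0290). In the comparisons inside sets, the change of the culture effect in the posterior region was 0.09 for nop5 and -0.56 for Nop60B 1628188_at, and the change of the cut effect over both regions was 0.46 for Nop17l, none of which passed. After renewed quantile normalization the nop5 and Nop60B values no longer passed (-0.55, adjusted p = 0.138, and -0.77, adjusted p = 0.102), and with array weights the Nop60B value did not (-0.69, adjusted p = 0.0794). The part of the sets in these values cannot be told apart from that of time and region.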

How the results depend on the processing

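No called value reversed under any alternative run. In the unaffected comparisons the cut effect called 6 of the 7 probe sets at 12 h and 5 at 24 h, and 3100 and 3340 of all, and the culture effect called 6 each time and 3795 (12 h posterior), 6020 (24 h anterior), 4525 (24 h posterior) and 7053 (24 h, both regions) of all. With the replicate block, the replicate numbers as a term without evidence of pairing, these were 6, 5 and 6 of the 7, and 3231, 3434, 3904, 6109, 4658 and 7156 of all. In comparisons across sets the block moved the number of the 7 called for the cut effect at 12 h posterior (5, against 4 without it) and for cut minus uncultured at 12 and 24 h posterior (2, against 1 without it). Array weights gave 4653 calls (cut 12 h both regions), 2589 (cut 12 h posterior), 1866 (culture 12 h anterior), 5823 (culture 12 h posterior) and 3962 (culture 24 h anterior), and for cut minus uncultured 1765 (12 h anterior), 3316 (12 h posterior) and 1620 (24 h anterior), with 5 (12 h posterior), 1 (24 h anterior) and 2 (24 h both regions) of the 7. Quantile normalization again, which forces 1 spread of deviations on all arrays, gave 2180 (cut 12 h posterior), 1910 (culture 12 h anterior) and 3455 (culture 24 h anterior), and for cut minus uncultured 1601 (12 h anterior), 986 (12 h posterior) and 1574 (24 h anterior), with 1, 0, 1 and, over both regions at 24 h, 2 of the 7. Fitting only the groups compared gave 1127 (cut 24 h posterior), 1498 (culture 12 h anterior), 3361 (culture 24 h anterior), and for cut minus uncultured 1663 (12 h anterior), 2421 (12 h posterior, 3 of the 7) and 1232 (24 h anterior), with 2 of the 7 at 24 h posterior. Adjustment over the more variable 50% of probe sets gave 3 and 2 of the 7 for cut minus uncultured at 12 and 24 h posterior. At an adjusted p under 0.01 the calls were 802, 329 (2 of the 7), 775 and 963 for the cut effect (anterior then posterior, at 12 h and then at 24 h), 1696 and 2141 over both regions at 12 and 24 h, 1598 and 3947 for culture at 12 and 24 h anterior, and 1675, 839, 1387 and 2164 for cut minus uncultured in the same order, with 1, 0 and 1 of the 7 in the first 3 and 2 over both regions at 24 h; median centring and control probe sets kept moved no count by over 1.5 times, and the authors' fold changes equalled these. Why these counts moved was not tested.

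With any 1 of the 30 arrays left out, also of groups outside a comparison, which enter through the shared spread, the 7 gave 5 to 7 calls for cut 12 h (7 without replicate 2 of the uncut 24 h anterior group), 5 to 6 for cut 24 h, 6 for each unaffected culture effect and 2 to 5 for cut minus uncultured at 24 h over both regions, and all probe sets gave 2316 to 3391, 2759 to 3590, 3053 to 4029 (culture 12 h posterior), 5069 to 6226 (24 h anterior), 3516 to 4800 (24 h posterior), 6242 to 7566 (24 h both regions) and 4305 to 5584. Across sets the cut effect gave 2 to 3 and 1 to 5 at 12 h (anterior, posterior) and 3 to 6 and 4 to 5 at 24 h of the 7, and 839 to 1873, 393 to 1098, 836 to 1824 and 1055 to 2131 of all. Of the 7, 1 was called at 12 h posterior without replicate 1 of the cut group and 2 without replicate 2 of the uncut group, and 3 at 24 h anterior without replicate 2 of the cut group. Counts of all probe sets moved by over 1.5 times without cut replicate 3 (839) at 12 h anterior, cut replicate 1, 2 or 3 (627, 554, 454) or uncut replicate 2 or 3 (393, 397) at 12 h posterior, cut replicate 1 or 2 (1052, 836) at 24 h anterior and uncut replicate 1 or 3 (1055, 1079) at 24 h posterior. Culture at 12 h anterior gave 5 to 6 and 2179 to 3643, and cut minus uncultured gave 2 to 3 and 0 to 2 at 12 h (anterior, posterior) and 1 to 3 and 1 to 2 at 24 h, and 1981 to 2935, 983 to 1733, 1399 to 2768 and 2487 to 3742; the count of all fell by over 1.5 times without cut replicate 2 or uncultured replicate 1 or 2 at 12 h posterior (990, 998, 983) and without cut replicate 3 at 24 h anterior (1399). The planned filter on dim probe sets and the intensity trend were not run, since centred values hold no intensity, and signal over background is unknown for the same reason.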
